A study of Mus musculus with 6 samples.

Results

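The epithelium that covers the palatal shelves was described through 47 genes, sorted by their known roles into 6 basal genes, 8 periderm genes, 19 junction genes and 14 regulators. The genes were taken by symbol from a list of oral epithelium and periderm genes, and all 47 were found among the 56691 gene identifiers of the count files. Every one of the 47 passed the filter on low counts. Palatal shelves had been dissected from C57BL/6J mouse embryos at E14.0, the stage at which the shelves rise above the tongue, and RNA was sequenced in bulk from the anterior end (n = 3 libraries) and the posterior end (n = 3 libraries). The labels name no allele and no agent for either group, so the comparison asks how the 2 ends of the same tissue differ. How many embryos went into a library is not given in the sources used here, and the study describes its samples as biologically independent but the labels name no separate embryos or litters, so the p-values measure the spread between these libraries, which may be partly technical.

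The oral epithelium at this stage has a basal layer, which is anchored to the basement membrane by hemidesmosomes and expresses Krt5, Krt14 and Trp63, and a flat outer layer, the periderm, which expresses simple and wound-type keratins such as Krt8, Krt18, Krt6a and Krt17. The periderm keeps apposed oral surfaces from sticking to each other, and it is shed or displaced when the shelves meet and fuse. Trp63, Grhl3, Ripk4, Sfn and Kdf1 are regulators of this covering, and loss of several of them gives adhesions or clefts of the palate in mice.

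Counts on the transcribed strand ranged from 11378736 to 15172733 per library, so that 3 counts, the most that a count of 0 allows, corresponded to 0.205 to 0.259 CPM (the count divided by the TMM-scaled library size and given per 1000000 counts); these limits cover counting error only. Posterior replicates 2 and 3 stood apart from the other 4 libraries. Their share of multimapping reads was 6.12% and 5.94%, below the 8.45% to 8.77% of the others, and their share of mitochondrial counts was 0.973% and 1.14%, below 2.70% to 2.97%. The posterior samples also held muscle. The summed level of 6 skeletal muscle markers was 4.01 to 6.91 CPM in anterior libraries and 473 to 841 CPM in posterior ones, with Myod1 and Myog, regulators of muscle identity, among the 6 of 6 called higher posteriorly and none of the 6 at 0 in any library. Mesenchyme markers summed to 11827 to 13026 CPM anteriorly and 15511 to 25607 CPM posteriorly, with Prrx1 called higher anteriorly and Twist1 and Pdgfra among 3 of 8 called higher posteriorly, and the 3 collagen genes of the list held most of that sum. Endothelial, myeloid and erythroid markers gave 0 calls among 7, 6 and 6 genes with edgeR (1, 2 and 0 at an unadjusted p below 0.05), and their summed levels overlapped between the regions.

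The tissue carried the defining epithelial markers at both ends, at similar levels. Epcam, a membrane glycoprotein of epithelial cells, stood at 156, 133 and 140 CPM in anterior replicates 1 to 3 and at 173, 132 and 113 CPM in the posterior ones, a log2 fold change (posterior over anterior) of −0.04 with a 95% interval from −0.41 to 0.33. Cdh1, which encodes E-cadherin of adherens junctions, stood at 175, 153 and 151 CPM anteriorly and 186, 147 and 140 CPM posteriorly, a log2 fold change of −0.02 with an interval from −0.33 to 0.29. For both genes the regions overlapped, and in both the highest library of all was posterior replicate 1 and the lowest posterior replicate 3. The 47 genes together summed to 3818 ± 126 CPM anteriorly and 3745 ± 799 CPM posteriorly (SD, n = 3 each), with 4615, 3574.5 and 3045 CPM in the posterior replicates. In bulk RNA, fewer epithelial cells and less RNA of a gene per epithelial cell cannot be told apart.

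Of the 47 genes, 7 (14.9%) were called between the regions by edgeR's quasi-likelihood test at an adjusted p below 0.05, against 7.46% of the 15673 genes tested. This fit had region as its only term and is called the regional test in what follows. Leaving out 1 library moved the count to between 3 (without anterior replicate 1) and 20 (without posterior replicate 1). Those fits called 522 of 15432 genes and 46.4% of all genes tested. A term for posterior replicates 2 and 3 took the posterior calls from 2 to 9 (4.4% of all genes). With that term the regional difference rests on posterior replicate 1 alone. Sox2, Trp63, Elf3, Elf5 and Lamb3 were higher anteriorly, which is 5 of 47 (10.6%) against 2.59% of all genes. Cldn1 and Krt7 were higher posteriorly, 2 of 47 (4.26%) against 4.87% of all genes. The median log2 fold change of the 47 was −0.077, with 27 genes below 0 and 20 above, beside a median of −0.0040 over all genes tested. The median of the 47 turned to 0.043 with a term for posterior replicates 2 and 3, to 0.042 without posterior replicates 2 and 3 and to 0.014 without posterior replicate 3. Of the 40 genes not called, 34 had a 95% interval within −1 to 1 and 11 within −0.5 to 0.5, so that a regional difference of 1 on the log2 scale lay outside the interval for most of them. Before adjustment 13 of the 47 had a p below 0.05 (27.7% against 25.2% of all genes tested).

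**Figure D1:**
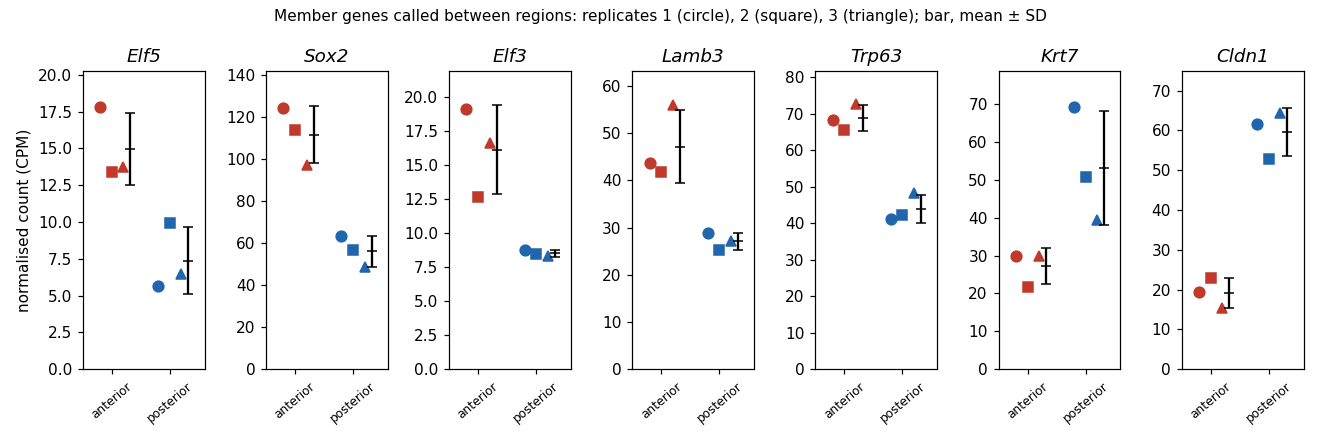
Normalised count (CPM, linear axis from 0) of the 7 epithelial genes called between regions, in each of the 3 anterior and 3 posterior libraries, with bars for the mean ± SD. For each of the 7 genes the 3 anterior points and the 3 posterior points do not overlap, as for Sox2 with 97.2 to 124 CPM anteriorly and 48.5 to 63.4 CPM posteriorly.

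For 4 of the 7 called genes, 2 in each direction, the 100 bases before the start of transcription are shown as the stretch next to the start that RefSeq places on GRCm38.p6. They are read 5′ to 3′ on the strand of the gene, and capitals mark a match to the TFAP2 motif GCCNNNGGC, the only match to a searched motif in these 4 stretches. Sox2 lies at chr3:34649895-34649994 on the plus strand, Elf3 at chr1:135258473-135258572 on the minus strand, Cldn1 at chr16:26371840-26371939 on the minus strand, and Krt7 at chr15:101412303-101412402 on the plus strand.
Sox2: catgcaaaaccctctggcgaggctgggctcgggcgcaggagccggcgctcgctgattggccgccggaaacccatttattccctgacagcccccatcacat
Elf3: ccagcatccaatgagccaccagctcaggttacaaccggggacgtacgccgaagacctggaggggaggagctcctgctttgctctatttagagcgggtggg
Cldn1: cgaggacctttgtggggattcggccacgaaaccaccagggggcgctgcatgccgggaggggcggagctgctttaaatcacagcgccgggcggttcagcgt
Krt7: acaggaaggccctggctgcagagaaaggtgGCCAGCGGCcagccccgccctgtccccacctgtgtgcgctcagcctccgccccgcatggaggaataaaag

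Promoters from 250 bases before to 50 bases after the start were at hand for 23 of the 47 genes, with Trp63 among the 24 others. Letters were searched on both strands, and AP-1 and TFAP2 letters are palindromic apart from their free positions. The TFAP2 letters GCCNNNGGC stood in 5 of the 23 promoters (Cldn3, Dsp, Grhl1, Krt18 and Krt7), 21.7% against 18.5% of the 27025 promoters in the table. The TEAD letters GGAATG stood in 6 of 23 (Cldn6, Cldn7, Elf3, Elf5, Krt14 and Lamb3), 26.1% against 16.6%. The grainyhead letters AACCNGTT stood in 1 of 23, Sfn, against 2.35% of all promoters, the AP-1 letters TGANTCA in Cldn4 and Krt13 (8.97% of all), and TATAAA in Krt8 (15.7% of all). These matches are letters in a window and say nothing of binding.

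Among the 14 regulators the 4 called genes were all higher anteriorly (28.6% against 2.59% of all genes), and 12 of the 14 log2 fold changes were below 0 (50.4% of all genes were), with a median of −0.38. Sox2 encodes an HMG-box factor that is known from the progenitors of taste buds, teeth and foregut epithelium (chr3:34650405-34652461, a single-exon gene). It stood at 124, 114 and 97.2 CPM anteriorly and 63.4, 56.6 and 48.5 CPM posteriorly. Each anterior library was above each posterior one, with a log2 fold change of −0.99 ± 0.14 (SE; adjusted p = 0.00529). Sox2 is also known from glial and neural cells. Glial markers summed to 49.4 to 55.4 CPM anteriorly and 56.3 to 77.6 CPM posteriorly, with Erbb3 called higher posteriorly, and neuronal markers to 41.3 to 51.4 CPM and 34.6 to 278 CPM, with 0 of 5 called by edgeR (3 at an unadjusted p below 0.05) and the highest level in posterior replicate 2. Markers of ciliated epithelium summed to 45.1 to 88.9 CPM anteriorly and 30.6 to 36.3 CPM posteriorly, and those of tooth epithelium to 41.3 to 58.3 CPM and 11.1 to 17.5 CPM, both higher anteriorly. The part of these 4 marker lists in the differences of the 4 called regulators was not tested.

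Trp63, the p53 family member that basal epithelium depends on (chr16:25683763-25892102), stood at 68.3, 65.4 and 72.7 CPM anteriorly and 41.2, 42.2 and 48.4 CPM posteriorly. The 3 libraries of each region lay close together and the regions did not overlap, with a log2 fold change of −0.65 ± 0.10 (SE; adjusted p = 0.00949). Elf3 and Elf5 encode ETS factors of epithelial differentiation. Elf3 (chr1:135253575-135258568) stood at 19.1, 12.6 and 16.6 CPM anteriorly and 8.74, 8.44 and 8.28 CPM posteriorly, a log2 fold change of −0.92 ± 0.18 (SE; adjusted p = 0.0207). Elf5 (chr2:103411688-103450989) stood at 17.8, 13.4 and 13.7 CPM anteriorly and 5.68, 9.95 and 6.43 CPM posteriorly, a log2 fold change of −1.03 ± 0.24 (SE; adjusted p = 0.0440). Sox2 kept its call in every alternative fit and with each library left out. Trp63 lost it without anterior replicate 1, anterior replicate 3 or posterior replicate 2 (adjusted p = 0.0559, 0.0540 and 0.0594). Elf3 lost it without anterior replicates 1 or 3 or posterior replicates 2 or 3 (adjusted p = 0.0780 to 0.0940). A term for posterior replicates 2 and 3 did not call Elf3 either (log2 fold change −0.88). Elf5 lost its call without any 1 of the anterior replicates or posterior replicate 3 (adjusted p = 0.108 to 0.175) and with the replicate number as a block (0.0770).

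The other 10 regulators were not called in the regional test. Grhl3, a grainyhead factor of periderm, had regions that did not overlap, at 19.3, 17.6 and 16.9 CPM anteriorly and 13.4, 14.1 and 12.5 CPM posteriorly, with a log2 fold change of −0.43 ± 0.12 (SE; adjusted p = 0.0798). Its relatives Grhl1 and Grhl2 gave −0.39 and −0.18 with overlapping regions. Foxe1, a forkhead factor of pharyngeal and oral epithelium, stood at 46.8, 57.3 and 40.8 CPM anteriorly and 46.2, 27.2 and 25.9 CPM posteriorly. Only posterior replicates 2 and 3 of Foxe1 lay below the anterior range, and the log2 fold change was −0.55 (adjusted p = 0.208). With a term for posterior replicates 2 and 3 it was −0.065. Foxe1, Grhl3, Kdf1 and Ripk4 were called higher anteriorly without posterior replicate 1, where 46.4% of all genes tested were called. The kinase gene Ripk4 gave −0.28 and Kdf1, a factor of keratinocyte differentiation, −0.37. The splicing regulators Esrp1 and Esrp2, which set epithelial isoforms, gave −0.10 and −0.11, both with intervals inside −0.5 to 0.5. The 2 genes above 0 were Ovol1, a zinc-finger factor, at 0.065, and Sfn, which encodes 14-3-3σ, at 0.25, with Sfn at 213 CPM in posterior replicate 1 and between 107 and 146 CPM in the other 5 libraries.

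**Figure D2:**
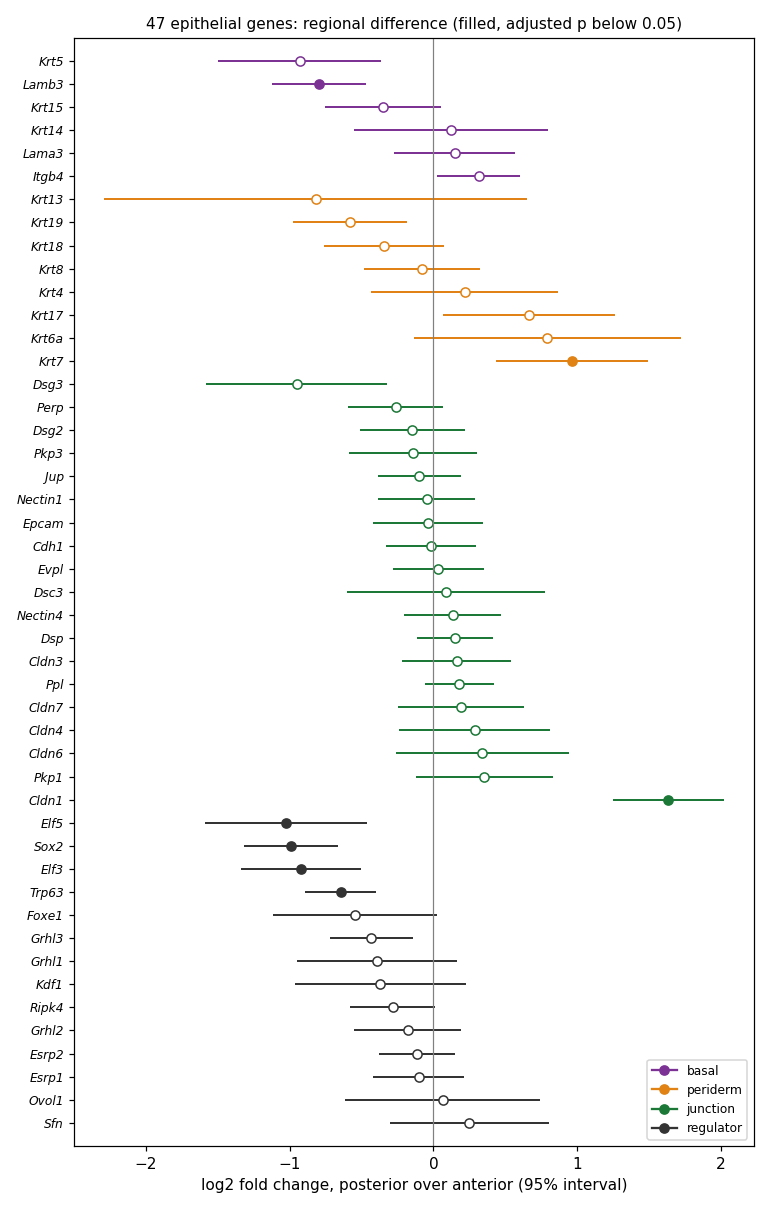
Log2 fold change, posterior over anterior, of each of the 47 epithelial genes with its 95% interval, coloured by class, and filled where the adjusted p was below 0.05. The 7 filled points run from Elf5 at −1.03 to Cldn1 at 1.63, and the intervals of Epcam and Cdh1 span 0.

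Of the 6 basal genes, the regional test called Lamb3 higher anteriorly and did not call the other 5 (16.7% against 2.59% of all genes called higher anteriorly). Lamb3 encodes the β3 chain of laminin-332, which ties basal cells to the basement membrane (chr1:193207699-193343878). It stood at 43.7, 41.7 and 55.9 CPM anteriorly and 28.8, 25.3 and 27.2 CPM posteriorly. The posterior libraries lay within a narrow range, and the log2 fold change was −0.80 ± 0.14 (SE; adjusted p = 0.0137). The call was lost without posterior replicate 2 or 3 (adjusted p = 0.0744 and 0.0536). Lama3, the α3 chain of the same laminin, gave 0.15 with overlapping regions. Itgb4, the hemidesmosome integrin β4 that binds this laminin, stood at 45.1, 44.1 and 56.8 CPM anteriorly and 61.2, 57.7 and 62.8 CPM posteriorly, higher posteriorly in each library but not called (log2 fold change 0.32 ± 0.12 (SE), adjusted p = 0.161).

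None of the basal keratins was called in the regional test. The estimate for Krt14 was above 0 and those for Krt5 and Krt15 below it. Without posterior replicate 1 all were below 0, at −1.25 for Krt5, −0.29 for Krt14 and −0.57 for Krt15. Krt5, the type II basal keratin, stood at 303, 331 and 387 CPM anteriorly and 251, 129 and 156 CPM posteriorly. Its regions did not overlap, yet the posterior libraries differed among themselves, and it was not called (log2 fold change −0.93 ± 0.24 (SE), adjusted p = 0.0616). DESeq2 and the edgeR fit with no low-count filter did call Krt5 (adjusted p = 0.00243 and 0.00401). With a term for posterior replicates 2 and 3 its log2 fold change was −0.44, and it was not called. Krt14, its type I partner, stood at 342, 320 and 385 CPM anteriorly and 571, 326 and 243 CPM posteriorly, with the highest and the lowest library both posterior (log2 fold change 0.12, adjusted p = 0.802). A term for posterior replicates 2 and 3, which rests on posterior replicate 1, called Krt14 at a log2 fold change of 0.71. Krt15, the other basal type I keratin, stood at 418, 429 and 402 CPM anteriorly and 421, 283 and 275 CPM posteriorly. Posterior replicate 1 of Krt15 lay within the anterior range and the other 2 below it (log2 fold change −0.35, adjusted p = 0.245). Krt15 was called without posterior replicate 1 (adjusted p = 0.000194), where 46.4% of all genes tested were called.

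Of the 8 periderm keratins the regional test called 1 (12.5% against 4.87% of all genes called higher posteriorly), Krt7, a simple-epithelial type II keratin (chr15:101411043-101430313). It stood at 30.0, 21.8 and 30.0 CPM anteriorly and 69.2, 50.8 and 39.3 CPM posteriorly. All posterior libraries were above all anterior ones, with a log2 fold change of 0.96 ± 0.22 (SE; adjusted p = 0.0442), and the call was lost without any 1 of the anterior replicates or posterior replicate 2 (adjusted p = 0.116 to 0.177). Krt17 and Krt6a, keratins of periderm and of wounded epidermis, had 2 posterior libraries above the anterior range and were not called in the regional test. A term for posterior replicates 2 and 3, which rests on posterior replicate 1, called both, with log2 fold changes of 1.11 for Krt17 and 1.56 for Krt6a. Without posterior replicate 1 the log2 fold changes were 0.37 and 0.17, and neither was called. Krt17 stood at 312, 283 and 316 CPM anteriorly and 657, 485 and 300.3 CPM posteriorly, with a log2 fold change of 0.66 ± 0.25 (SE; adjusted p = 0.160). It was called with no low-count filter and without posterior replicate 3 (adjusted p = 0.0480 and 0.0241). Krt6a stood at 77.0, 67.0 and 56.6 CPM anteriorly and 197, 90.5 and 60.1 CPM posteriorly, with a log2 fold change of 0.79 ± 0.39 (SE; adjusted p = 0.255). In both, posterior replicate 3 lay within the anterior range. Krt6a is uncertain in level, since 45.7% of the 50-base words of its exons also occur in another gene, mostly Krt6b.

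The simple-epithelial keratins Krt18 and Krt19 were lower posteriorly in every library and were not called in the regional test. Krt19 stood at 120, 78.0 and 98.4 CPM anteriorly and 69.2, 71.1 and 58.0 CPM posteriorly (log2 fold change −0.58 ± 0.17 (SE), adjusted p = 0.0857), and Krt18 gave −0.34 (adjusted p = 0.265). Krt19 was called by DESeq2, with no filter and without posterior replicate 1 (adjusted p = 0.0232, 0.0238 and 0.0209). The last of these fits called 46.4% of all genes tested. Krt8, the partner of Krt18, overlapped between regions at −0.077, with 26.9% of its 50-base words shared with another gene. Krt13 and Krt4, keratins of the differentiated oral lining, had low levels per length, at 2.49 and 2.68 CPM per kb of exon. Krt13 had 83, 77 and 63 counts anteriorly and 91, 10 and 34 counts posteriorly, the largest SE of the 8 (0.63), with an interval of the log2 fold change from −2.28 to 0.64. In the fit without posterior replicate 1 the log2 fold change was −1.9 and Krt13 was called (adjusted p = 0.00595). Krt4 stood between 4.50 and 8.59 CPM in all 6 libraries, with a log2 fold change of 0.22.

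Among the 19 junction genes the regional test called Cldn1 and none of the other 18, which is 5.26% against 4.87% of all genes called higher posteriorly. Cldn1 encodes claudin-1, the sealing claudin of stratified epithelia (chr16:26356642-26371841). It was at 19.4, 22.8 and 15.3 CPM anteriorly and at 61.6, 52.7 and 64.3 CPM posteriorly. The posterior level was above the anterior one in every library by a wide margin, with a log2 fold change of 1.63 ± 0.16 (SE; 95% interval 1.26 to 2.01, adjusted p = 0.00135). The call held in every alternative fit, with log2 fold changes from 1.49 to 1.78. All 6 muscle markers and 3 of the 8 mesenchyme markers were called in the same direction as Cldn1 and Krt7, with Prrx1 in the other, and their part in these 2 results was not tested.

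The other 4 claudins were not called in the regional test. The term for posterior replicates 2 and 3, which rests on posterior replicate 1, called Cldn4 and Cldn6. Cldn3, Cldn4, Cldn6 and Cldn7 gave log2 fold changes of 0.16, 0.29, 0.34 and 0.19, each with overlapping regions. Cldn4 and Cldn6, barrier claudins of simple and embryonic epithelia, were high in posterior replicate 1 alone, at 79.0 and 85.2 CPM against 43.8 to 51.6 CPM and 41.5 to 50.5 CPM in the other 5 libraries. The desmosome genes were not called in the regional test. A term for posterior replicates 2 and 3, which rests on posterior replicate 1, called Dsg2 (log2 fold change −0.49) and Pkp1 (0.75). The fit without posterior replicate 1, where 46.4% of all genes tested were called, called Dsp, Perp, Pkp3 and Dsg3. Dsp, the plakin that links desmosomes to keratin, stood at 304, 301 and 330 CPM anteriorly and 304.5, 379 and 353 CPM posteriorly (log2 fold change 0.15). Jup and Perp gave −0.097 and −0.26, Pkp1 and Pkp3 0.35 and −0.14, and Dsg2 and Dsc3 −0.15 and 0.087, all with overlapping regions.

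Dsg3, the desmoglein of basal layers, was the exception by size. It stood at 20.4, 20.7 and 13.9 CPM anteriorly and 12.1, 6.20 and 10.2 CPM posteriorly. The regions did not overlap, and the log2 fold change was −0.95 ± 0.27 (SE), but the adjusted p was 0.0795. DESeq2 and the edgeR fit with no filter called it (adjusted p = 0.0135 and 0.014). With a term for posterior replicates 2 and 3 the log2 fold change of Dsg3 was −0.60, and it was not called. Ppl, which encodes periplakin, was higher posteriorly in each library by a small amount (0.18 ± 0.10 (SE), adjusted p = 0.299), and its partner Evpl, envoplakin, gave 0.034. The adhesion genes Nectin1, whose loss in people gives cleft lip and palate, and Nectin4 gave −0.046 and 0.13. In all, regions did not overlap for 10 of the 47 genes in the anterior direction and 4 in the posterior direction, 21.3% and 8.51% against 13.4% and 14.7% of all genes tested.

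Per kilobase of exon, keratins led at both ends, in a different order. Anteriorly the mean level was 236 CPM per kb for Krt15, 199 for Krt14, 196 for Krt17, 155 for Krt5, 80.5 for Perp and 80.3 for Sfn. Posteriorly it was 310 CPM per kb for Krt17, 216 for Krt14, 185 for Krt15, 95.4 for Sfn and 81.2 for Krt5. The lowest mean levels over the 6 libraries were those of Grhl1, Ovol1 and Elf5, at 1.07, 1.08 and 1.90 CPM per kb. Words of 50 bases shared with other genes reached 15.0% for Sfn, 13.9% for Krt14 (shared with Krt16) and 8.52% for Krt5, so that these levels leave out reads that could not be placed.

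Ratios of keratins within a library were formed after the values were seen and are given as a description, with no test. Krt14 over Krt5 was 1.13, 0.967 and 0.994 anteriorly and 2.28, 2.53 and 1.56 posteriorly. Krt17 over Krt5 was 1.03, 0.856 and 0.816 anteriorly and 2.62, 3.75 and 1.93 posteriorly. In both ratios the lowest posterior library stood above the highest anterior one, although Krt14 and Krt17 alone overlapped. Krt7 over Krt18 was 0.380, 0.309 and 0.407 anteriorly and 1.05, 0.758 and 0.923 posteriorly, and Krt19 over Krt8 was 0.822, 0.652 and 0.870 against 0.505, 0.549 and 0.626. In the merged exons of all annotated transcripts, Krt5 has 2197 bases and Krt14 1758 bases, so the pair is close in length. Krt7 has 7049 bases and Krt18 1437, and a merged length can exceed that of each transcript.

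**Figure D3:**
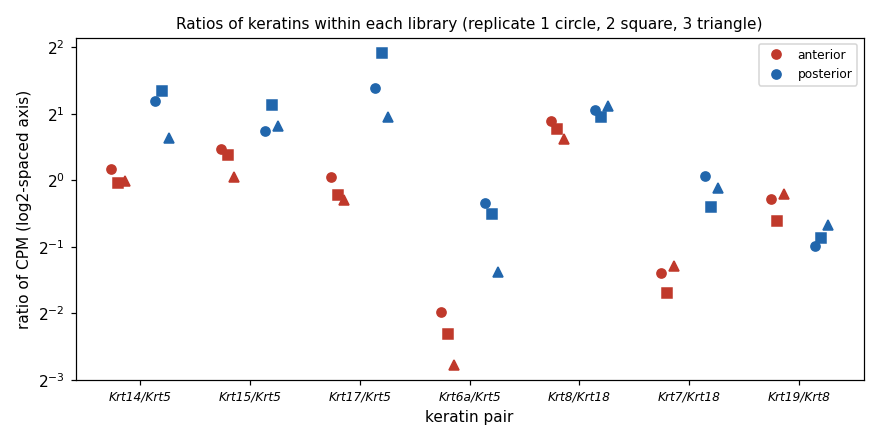
Ratio of CPM between keratin pairs within each library (log2-spaced axis), 3 anterior and 3 posterior points a pair. Krt14 over Krt5 runs from 0.967 to 1.13 anteriorly and 1.56 to 2.53 posteriorly, and Krt17 over Krt5 from 0.816 to 1.03 and 1.93 to 3.75.

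Set against Epcam in the same library, Sox2 and Cldn1 still parted the regions. Sox2 over Epcam was 0.795, 0.856 and 0.693 anteriorly and 0.367, 0.428 and 0.429 posteriorly, and Cldn1 over Epcam was 0.124, 0.171 and 0.109 anteriorly and 0.357, 0.398 and 0.569 posteriorly. Trp63 over Epcam, at 0.437, 0.492 and 0.518 against 0.239, 0.319 and 0.428, was higher in each anterior library too, though posterior replicate 3 came near. Of the other 46 genes, the ratio to Epcam was higher in every anterior library for 13 and in every posterior library for 9, which is beside 9.25% and 7.3% of all genes tested, and overlapped for 24. Epcam and the summed level of the members both fell from posterior replicate 1 to 3. Dividing by Epcam can thus narrow the spread of members more than that of other genes, and these shares are not like for like.

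The posterior libraries did not resemble each other as closely as the anterior ones did. The median log2 CPM of the periderm genes, less their anterior mean, was 0.47, −0.024 and −0.29 in posterior replicates 1, 2 and 3, that of the junction genes 0.22, −0.0020 and −0.12, and that of the basal genes −0.12, −0.33 and −0.56. The regulators stood at −0.37, −0.37 and −0.48, below the anterior mean in all 3 posterior libraries. Over all genes tested the medians stayed between −0.0062 and 0.0053.

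**Figure D4:**
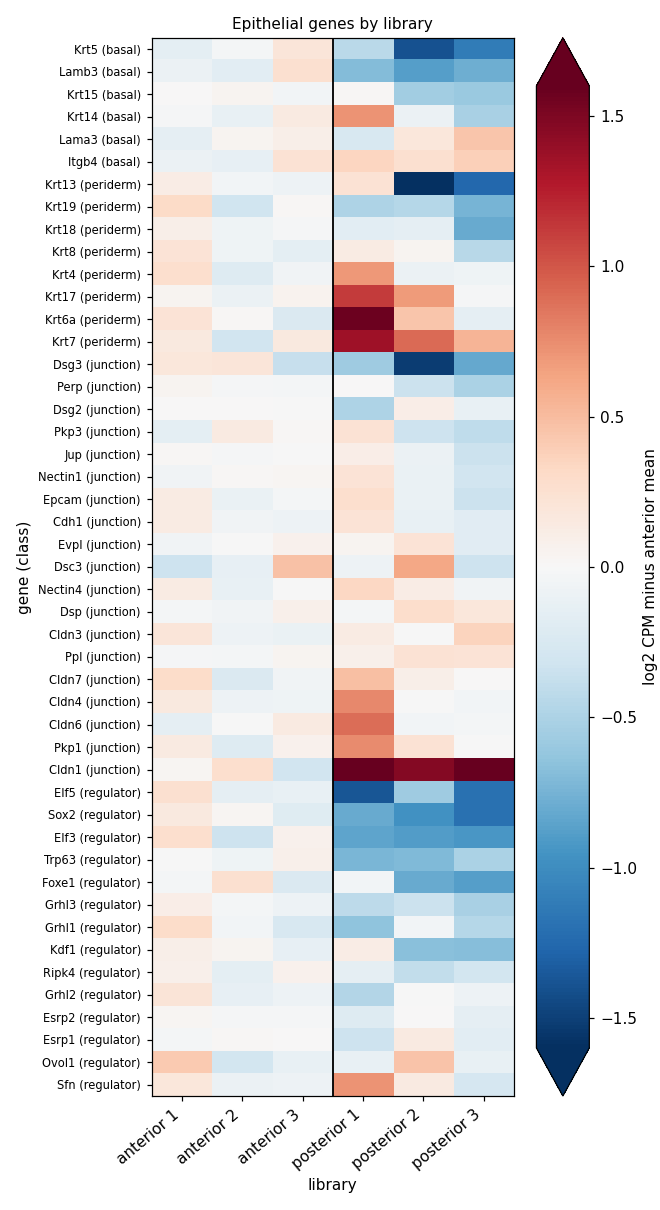
Log2 CPM of the 47 epithelial genes (rows, with class) in the 6 libraries (columns), less the mean of the anterior libraries, as colour from lower to higher. By their medians the periderm and junction genes are highest in posterior replicate 1, where the periderm median is 0.47, and the regulators are lower in all 3 posterior libraries.

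Exon length, merged over all annotated transcripts of a gene, moved with this spread. Over the 47 genes the difference between the mean of posterior replicates 2 and 3 and posterior replicate 1 had a Spearman correlation with log2 exon length of 0.582 (Pearson 0.590), beside 0.484 (0.429) over 15520 genes with a length. The difference between posterior replicate 1 and the anterior mean ran the other way with length, with a Spearman correlation of −0.335 (Pearson −0.267) over the 47 and −0.0952 (−0.029) over the 15520. The genes of each comparison share the same libraries, and posterior replicate 1 enters the 2 differences with opposite signs. Opposite directions are thus partly built in, and these are descriptions. For Krt6a, with 2418 bases, the difference was −1.42 on the log2 scale, and for Lama3, with 10745 bases, it was 0.56. A correction per library for this merged length was chosen after the data were seen. With it Sox2, Trp63, Elf3, Elf5, Lamb3 and Cldn1 kept their calls, Krt5 gained one (adjusted p = 0.0370) and Krt7 lost it (adjusted p = 0.0913). The corrected value of Krt7 rests on its merged length of 7049 bases.

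**Figure D5:**
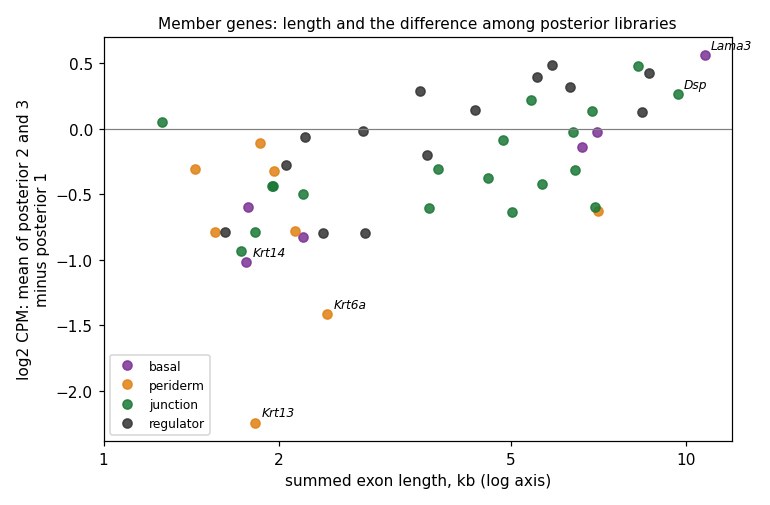
Difference in log2 CPM between the mean of posterior replicates 2 and 3 and posterior replicate 1 against summed exon length (kb, log axis) for the 47 epithelial genes, coloured by class. Over the 47 genes the Spearman correlation is 0.582, with Krt6a at −1.42 and Krt14 at −1.02 among the shorter genes and Lama3 at 0.56 among the longer ones. Cldn3 at 0.050, short by this measure, and Krt7 at −0.63 and Dsg3 at −0.60, long by it, lie off that trend.

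In a fit with a term that marked posterior replicates 2 and 3 by their multimapping share, the regional difference rested on posterior replicate 1 against the anterior libraries, and the spread came from the anterior libraries and posterior replicates 2 and 3. That fit called 14 of the 47 genes, against 7.61% of all genes tested, with 5 higher anteriorly (Sox2, Trp63, Elf5, Lamb3 and Dsg2) against 3.21% and 9 higher posteriorly (Cldn1, Krt7, Cldn4, Cldn6, Krt14, Krt17, Krt6a, Pkp1 and Sfn) against 4.4%. Without posterior replicate 1 the count was 20 of 47, against 46.4% of all genes tested, of which 16 were higher anteriorly (21.1% of all) and 4 posteriorly (25.3% of all), Krt5 and Dsg3 among the former and Dsp and Lama3 among the latter. Both fits use the same 3 anterior libraries.

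Of a further 26 epithelial genes, held apart from the 47, 22 were not called, 3 were called higher anteriorly (11.5% against 2.59% of all genes) and 1 posteriorly (3.85% against 4.87%), with a median log2 fold change of −0.20. Ovol2, a zinc-finger factor that keeps epithelial identity, and Cldn23, a claudin, fell by 1.47 and 0.91 on the log2 scale posteriorly (adjusted p = 0.0270 and 0.0321), as did the claudin gene Cldn8, named after its value was seen, by 0.83 (adjusted p = 0.0476). Itgb6, the β6 integrin of epithelial cells, stood at 2.12, 1.52 and 2.24 CPM anteriorly and 6.05, 5.98 and 6.43 CPM posteriorly (log2 fold change 1.65, adjusted p = 0.00475). Of 12 genes of cornification, the late program of epidermis, 7 were tested and 2 were called, both higher anteriorly, beside the same 2.59% of all genes. Lor, which encodes loricrin, stood at 5.38, 6.67 and 4.92 CPM anteriorly and 0.971, 0.0721 and 0.479 CPM posteriorly (adjusted p = 0.00961), and Krtdap at 4.09, 3.05 and 3.80 CPM against 1.87, 1.01 and 0.616 CPM (adjusted p = 0.0470). The other 5 tested genes were not called.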

How the data were processed

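RNA from E14.0 palatal shelves was sequenced in 6 libraries, grouped by the region in their labels. For each library the authors deposited unnormalized gene counts, in a file laid out as STAR writes them. The methods and the submitters' processing notes name HISAT2, StringTie, DESeq2 1.30.1 and mm10, and the annotation is not given in the sources used here. The reverse-stranded counts were used, 18.95 to 23.1 times those of the other strand, and multimapping reads stayed out of library sizes and tests. Of 56691 identifiers, 52073 were matched to GENCODE M21 (GRCm38) for symbols, positions and exon lengths. No member shared exon bases with a gene on its strand.

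A gene entered the test with 10 or more counts in 3 or more libraries. The fit used edgeR 4.0.16 under R 4.3.3 (quasi-likelihood test on TMM-scaled counts, region as the only term, Benjamini-Hochberg over all 15673 genes, threshold 0.05, two-sided). Errors and 95% intervals come from that fit, and the code was tested on simulated data. No member list had a test of its own. The members and lists were chosen with earlier results of these data known. Every member is named, and of each other list the 2 called genes with the smallest adjusted p in each direction. Alternatives were DESeq2 1.42.0, RLE, no filter, the replicate number as a block, unstranded counts, a library-group term and leaving out each replicate. The length correction and leaving out both posterior libraries low in multimapping reads were chosen after seeing the data.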

Additional observations from a re-analysis of the deposited data

How the results depend on the processing

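Called genes numbered 1978 (637 anterior, 1341 posterior) with DESeq2 and 2162 (646 and 1516) with no filter, and epithelial members called anteriorly 8 in both (Krt5, Krt19 and Dsg3 beside the 5), with 11 members called in all with no filter. Members called numbered 14 with the library-group term and 13 without both posterior libraries low in multimapping reads, 9 of them posterior in each, against 1 posterior with the length correction. Leaving out both sets 3 anterior libraries against 1 posterior library, which is assumed to vary as the anterior ones do, and Lamb3 and Elf3 were not called there. The periderm median, 0.071 with region as the only term, was 0.47 in both of the first fits, and the junction median, 0.087 with region as the only term, was 0.22. Leaving out each replicate gave 498 to 7119 genes called (140 to 3242 anterior, 312 to 3877 posterior), 3 to 20 members (2 to 16 anterior, 1 to 4 posterior), 1 to 12 other epithelial genes, and medians of −0.43 to −0.061 for basal genes −0.46 to −0.29 for regulators, −0.14 to 0.22 for periderm genes, 0.0015 to 0.14 for junction genes and −0.15 to 0.014 for all members; the highest counts came without posterior replicate 1. Same-numbered libraries correlated at −0.053, 0.045 and 0.036 in their deviations from the regional means. Posterior replicates 2 and 3 stood apart from posterior replicate 1, so these values cannot decide whether the numbers pair the samples. With the replicate block 829 genes were called, 237 of them anterior, with 6 members and 2 other epithelial genes, and Elf5 was not called (adjusted p = 0.0770). RLE and unstranded counts changed no member's call. Signs of single genes turned only for members not called with region as the only term. With the library-group term they were Krt15 0.016, Lama3 −0.26, Krt8 0.12, Krt13 0.24, Epcam 0.27, Cdh1 0.22, Dsp −0.033, Dsc3 −0.11, Perp 0.012, Pkp3 0.23, Jup 0.10, Nectin1 0.22, Ovol1 −0.16 and Kdf1 0.12. With the length correction they were Lama3 −0.12, Krt8 0.049, Epcam 0.070, Dsp −0.068 and Evpl −0.060. With a replicate left out the log2 fold changes ran from −0.29 to 0.37 for Krt14, −0.017 to 0.32 for Lama3, −0.091 to 0.37 for Krt4, −0.18 to 0.082 for Krt8, −0.22 to 0.096 for Epcam, −0.15 to 0.063 for Cdh1, −0.023 to 0.43 for Cldn4, −0.036 to 0.51 for Cldn6, −0.29 to 0.0015 for Dsg2, −0.24 to 0.35 for Dsc3, −0.20 to 0.014 for Jup, −0.066 to 0.14 for Evpl, −0.20 to 0.072 for Nectin1, −0.24 to 0.0033 for Esrp1, −0.16 to 0.31 for Ovol1 and −0.053 to 0.46 for Sfn. The cause of these changes was not tested, and no other scaling moved the median of all genes by 0.1.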

Other observations

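Genes known from tooth and ciliated epithelium were also read. Of 13 genes of the tooth epithelium, 9 were too low to test, 4 were tested and 1 was called, higher anteriorly, beside 2.59% of all genes. Ambn, which encodes the enamel matrix protein ameloblastin, stood at 19.5, 23.7 and 13.3 CPM anteriorly and 0, 0.144 and 0.684 CPM posteriorly (adjusted p = 0.00149), while Amelx, the major enamel protein gene, was at 0 in all 6 libraries. Sp6, a factor of the dental epithelium, was at 23.3 CPM in anterior replicate 3 and at 2.04 and 3.19 CPM in the other anterior libraries, and was not called (adjusted p = 0.140). Tooth epithelium is also known to express Sox2 and Trp63.

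Of 7 genes of ciliated epithelium, which lines the nasal side of the shelves, 6 were tested and 1 was called, higher anteriorly, beside the same 2.59% of all genes. Tekt1, a component of ciliary microtubules, stood at 9.09, 4.93 and 5.87 CPM anteriorly and 2.24, 2.16 and 2.67 CPM posteriorly (log2 fold change −1.49, adjusted p = 0.0196). Foxj1, the regulator of motile cilia, stood at 48.1, 23.8 and 28.9 CPM anteriorly and 15.9, 18.6 and 18.1 CPM posteriorly. Its regions did not overlap, but it was not called (log2 fold change −0.94, adjusted p = 0.0711).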
